A study of Mus musculus with 4 samples.

Results

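The cells described here are 301 mesothelial-gated cells from the reporter-negative fraction of injured mouse livers. They were chosen by marker sums in the single-cell library of that fraction. Barcodes of under 1000 unique molecular identifiers (UMIs, each a counted transcript molecule), under 300 genes or over 20% mitochondrial UMIs were left out. A kept cell was a member when Msln, Upk3b, Nkain4 and Lrrn4 together gave at least 10 UMIs per 10000 and the endothelial genes Clec4g, Stab2 and Ptprb together gave under 20 per 10000. The 301 members were 5.71% (5.10 to 6.37) of the 5271 cells kept in the injury library. The same gate took 84 of 2818 cells, or 2.98% (2.38 to 3.68), in the negative recovery library, and 1389 of 2126 cells, or 65.3%, in the positive recovery library. The 3 libraries gave 10215 kept cells in all.

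Liver non-parenchymal cells came from mice fed a methionine- and choline-deficient diet with 45% high fat for 8 weeks, with 0.1% L-methionine in the drinking water, which produces a fatty and fibrotic liver. One group was taken at injury and the other in recovery. All mice carried a tamoxifen-inducible Cre under the Col1a2 promoter and a tdTomato reporter, spelled R28RtdTomato for the negative injury sample, R29RtdTomato for the negative recovery sample and R26RtdTomato in the study's design text. The reporter therefore follows past activity of a collagen promoter, and members of the negative fraction are cells that were collected as unlabelled. The reporter transcript is not among the 31053 features, so the fractions were taken as labelled. How long recovery lasted, how the fractions were separated, and the number, age and sex of the animals were not stated in the labels or files used here. The positive injury counts were not analysed here.

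Mesothelial cells form a thin epithelial sheet over the liver capsule and the walls of the body cavities. They carry both epithelial keratins and mesenchymal genes such as Wt1, and they secrete lubricants and matrix proteins onto the organ surface. In experimental peritonitis and fibrosis, mesothelium is known as a source of chemokines, acute-phase proteins and regulators of fibrin breakdown, and it can give rise to fibroblast-like cells.

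With 1 library in each group there is no replicate of either stage, so no test was made and every difference below has no replicate check. Values are the UMIs of all gated cells of a library summed and given per 1000000 UMIs of those cells (CPM). Brackets give 95% intervals, exact Poisson for levels and exact binomial for shares of cells, and they cover counting error only. Ratios are log2 of injury over recovery with 10 CPM added to each value, which understates differences of low genes. A gene was called higher or lower when that ratio passed 2-fold. The members held 6005378 UMIs at injury, with a median of 20177 UMIs and 4642 genes per cell, and 1523950 UMIs in recovery, with a median of 15741.5 UMIs and 4194.5 genes. The median mitochondrial share was 4.14% at injury and 3.74% in recovery. The negative injury and negative recovery libraries shared 3 barcodes, and the negative injury library shared 8 with the positive recovery library.

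At injury few cells lay near the edge of the gate. Its lowest member at injury had 11.5 gate UMIs per 10000 and the highest cell outside it had 9.29, with 9 cells outside between 5 and 10 and 16 inside between 10 and 15. In the positive recovery library the edge was less sharp, with 43 cells outside between 5 and 10 and 42 inside between 10 and 15. Members had a median of 29.0 gate UMIs per 10000 at injury and 41.7 in recovery. Msln, the cell-surface glycoprotein mesothelin (ENSMUSG00000063011, chromosome 17, 25748613 to 25754378, mm10), was at 1498 CPM in injury members and 1803 CPM in recovery members. The uroplakin Upk3b (ENSMUSG00000042985, chromosome 5, 136038496 to 136046487) was at 1066 and 1352 CPM at injury and in recovery, Nkain4 at 486 and 918 CPM, and Lrrn4 at 325 and 300 CPM. These genes chose the cells, so their levels only describe the gate.

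Genes that the gate did not use matched the mesothelial name. Wt1, a transcription factor of the mesothelial lineage (ENSMUSG00000016458, chromosome 2, 105126529 to 105173616), was at 492 CPM (474 to 510) in injury members and 316 CPM (289 to 346) in recovery members, against 2.14 CPM in the other 4970 injury cells. Of 15 mesothelial identity genes 13 were at least 2-fold higher in injury members than in the other injury cells, with a list median of 4.23. The 2 lower ones were the keratins Krt8, at 437 CPM in members and 1557 CPM in the other cells, and Krt18, which bile duct cells also express. Between stages 0 of the 15 were higher and 2 lower: the keratin Krt19, at 771 CPM at injury and 1680 CPM in recovery (-1.11, and -0.93 on TMM scaling of library totals, within 2-fold), and the insulin-like growth factor binding protein Igfbp6, at 1414 and 4114 CPM (-1.53). The median over all 15 was -0.17, and list medians here and below run over every gene of the list, kept or not.

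Markers of endothelial, hepatocyte, bile duct and leukocyte types were lower in the members than in the other injury cells but not absent. The portal fibroblast marker sum was higher in the members, and stellate markers went both ways. The 10 sinusoidal endothelial markers summed to 150 CPM in injury members, 398 CPM in recovery members and 6970 CPM in the other injury cells, with 0 markers undetected in either group of members. Kdr, described below, is among these markers and made up most of the recovery sum. The 12 hepatocyte markers gave 1080, 870 and 8540 CPM in the same order, and Trf alone gave 973 and 780 CPM in injury and recovery members. The 10 bile duct markers gave 252, 307 and 10061 CPM, and the 8 vascular endothelial markers 32.3, 23.0 and 1911 CPM. The 12 leukocyte markers gave 6.49, 11.8 and 85.7 CPM, and Ptprc, the leukocyte phosphatase CD45, had 0 UMIs in both groups of members. Stellate markers, 10 genes with Lrat at 4.16 CPM at injury and 0.656 CPM in recovery, summed to 504, 385 and 397 CPM. Of 7 kept stellate markers 3 were at least 2-fold higher in injury members than in the other injury cells and 3 lower. The median over the stellate list was -0.89. The 10 portal fibroblast markers summed to 1300 CPM in injury members, 2808 CPM in recovery members and 76.5 CPM in the other injury cells. Gas1 gave most of the member sums, at 830 CPM at injury and 2130 CPM in recovery. Set against the other injury cells, 5 of the 6 kept genes of this list passed 2-fold upward in injury members and 0 downward. The list median was 0.88. Dpt and Mfap4 were at 0 in both groups of members. The part of such RNA in the ratios below was not tested.

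Of 8351 genes kept with a mean of at least 10 CPM, 217 (2.60%) were at least 2-fold higher at injury and 205 (2.45%) lower, with a median ratio of -0.10. Genes under that mean could not be called, and the list counts below stand beside these shares. On TMM scaling, which moved the median of all genes by 0.14 to 0.04, the split was 277 higher and 146 lower, and median-of-ratios scaling gave 273 and 147. In the same 2 libraries, cells gated as endothelial (3590 at injury, 2282 in recovery) had 223 genes higher (2.65%) and 60 lower (0.714%), and cells gated as duct (at least 5 UMIs of Epcam, Cldn3 and Cldn7 per 10000, 1067 and 395 cells) had 181 higher (2.0%) and 72 lower (0.797%). All cells of the 2 libraries outside the mesothelial gate (4970 at injury, 2734 in recovery) had 297 of 9222 genes higher (3.22%) and 130 lower (1.41%). The endothelial and duct gates are set beside the members below, since all come from the same pair of libraries and share whatever the libraries differ in.

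**Figure D1:**
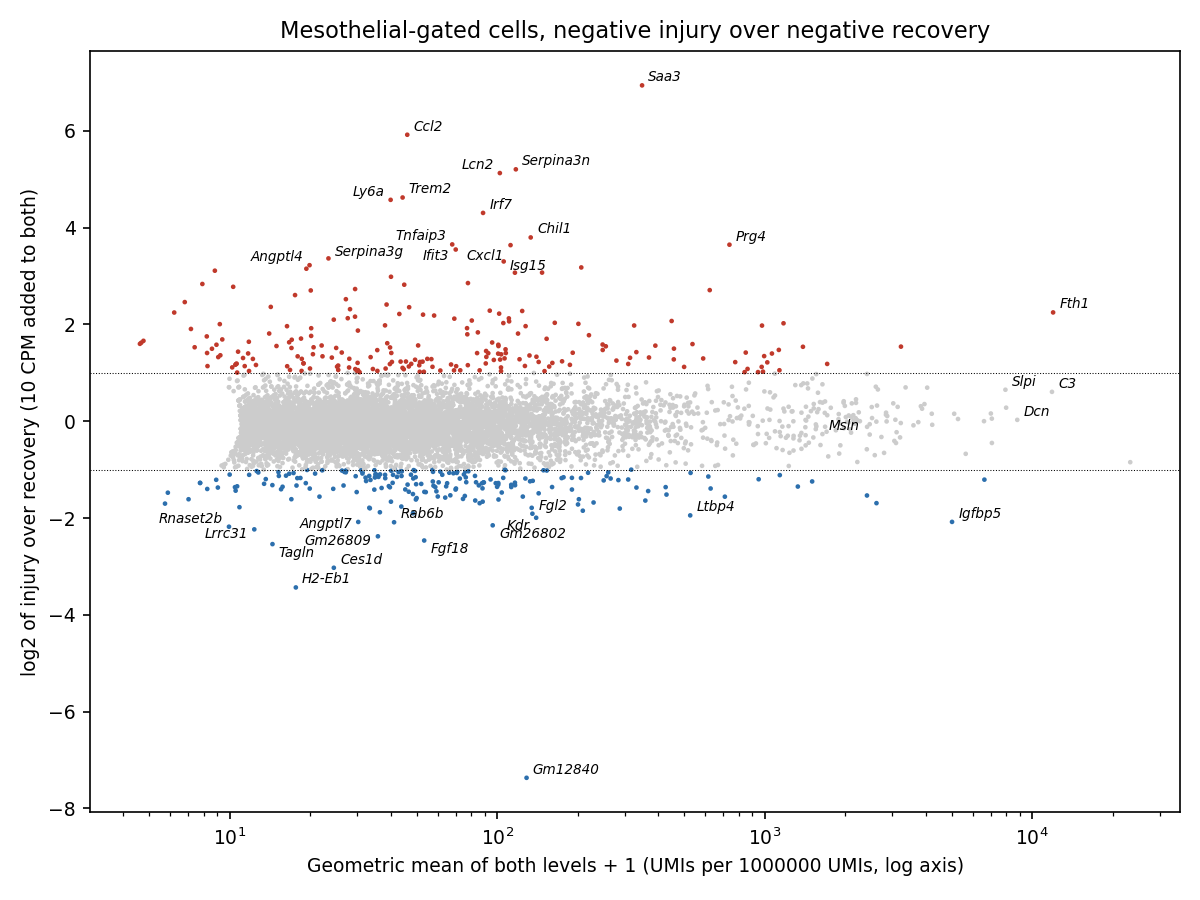
Log2 ratio of injury over recovery in mesothelial-gated cells with 10 CPM added (vertical axis) against the geometric mean of both levels with 1 added (horizontal log axis, CPM), 1 point per kept gene. Red points are the 217 genes at least 2-fold higher at injury, blue points the 205 lower, and dotted lines mark 2-fold. Saa3 lies highest at 6.94 and Gm12840 lowest at -7.37.

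The highest and lowest genes were looked up in RefSeq promoter windows (GRCm38.p6, 250 bases before to 50 after the start), and 11 of the 15 highest and 11 of the 15 lowest genes had one. Each window was searched on both strands for 3 motifs of factors known in acute-phase, NF-kB and interferon transcription. The NF-kB motif GGNNTTTCC was in 7 of the 11 windows of higher genes (Saa3, Serpina3n, Tnfaip3, Cxcl1, Ifit3, Serpina3g and Isg15) and 0 of the 11 of lower genes, against 5.82% of all 32851 windows. The C/EBP motif TTGCNNAA was in 3 of higher genes (Saa3, Lcn2 and Trem2) and 1 of lower genes (Gm26802), against 10.8% of all windows. The interferon-stimulated response element, searched as GAAANNGAA, was in 3 of higher genes (Saa3, Ifit3 and Isg15) and 1 of lower genes (Angptl7), against 8.56%. The motif forms were chosen after the values were seen. With 1 further G before it, the NF-kB motif was in 4 of the 11 and 0 of the 11 windows, against 1.63% of all, and with 1 further A after it the interferon element was in 3 and 0, against 3.44%. A match is a run of letters and no evidence of binding. Windows of 4 genes are shown, 1 or more for each motif and for the acute-phase, chemokine and interferon genes described next, printed 5′ to 3′ on the gene's strand with the matches in capitals. In Saa3 (chr7:46715627-46715926, minus strand) the NF-kB match lies 187 to 179 bases, the interferon-stimulated response element 125 to 117 bases and the C/EBP match 99 to 92 bases before the start. Serpina3n (chr12:104406458-104406757, plus strand) has an NF-kB match 170 to 162 bases before the start, and Cxcl1 (chr5:90890995-90891294, plus strand) has NF-kB matches at 89 to 81 and 70 to 62. Isg15 (chr4:156200769-156201068, minus strand) has 3 overlapping interferon-stimulated response elements between 78 and 58 bases before the start and an NF-kB match at 41 to 33.
Saa3: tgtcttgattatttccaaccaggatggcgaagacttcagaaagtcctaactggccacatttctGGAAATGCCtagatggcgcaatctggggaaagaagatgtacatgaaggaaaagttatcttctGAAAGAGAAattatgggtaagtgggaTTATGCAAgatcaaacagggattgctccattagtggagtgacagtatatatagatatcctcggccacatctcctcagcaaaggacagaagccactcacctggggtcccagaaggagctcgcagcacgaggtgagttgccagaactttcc
Serpina3n: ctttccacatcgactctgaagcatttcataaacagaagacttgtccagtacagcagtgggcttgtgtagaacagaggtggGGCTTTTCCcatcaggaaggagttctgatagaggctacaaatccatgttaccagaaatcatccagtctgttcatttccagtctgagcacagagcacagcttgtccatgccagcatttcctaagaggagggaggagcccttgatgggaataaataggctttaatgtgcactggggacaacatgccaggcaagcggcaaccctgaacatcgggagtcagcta
Cxcl1: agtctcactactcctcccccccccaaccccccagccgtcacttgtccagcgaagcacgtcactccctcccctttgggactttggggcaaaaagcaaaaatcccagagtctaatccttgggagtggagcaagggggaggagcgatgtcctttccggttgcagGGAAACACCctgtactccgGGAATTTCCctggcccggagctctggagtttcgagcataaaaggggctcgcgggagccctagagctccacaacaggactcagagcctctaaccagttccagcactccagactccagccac
Isg15: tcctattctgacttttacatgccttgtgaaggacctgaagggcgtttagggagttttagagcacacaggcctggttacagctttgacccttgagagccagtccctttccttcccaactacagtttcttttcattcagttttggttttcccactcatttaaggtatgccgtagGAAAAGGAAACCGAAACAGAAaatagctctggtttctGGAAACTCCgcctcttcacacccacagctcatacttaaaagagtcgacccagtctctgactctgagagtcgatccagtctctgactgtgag

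Acute-phase genes, which encode proteins secreted in inflammation, held Saa3, the gene with the largest positive ratio. Saa3, a serum amyloid A protein (ENSMUSG00000040026, chromosome 7, 46711998 to 46715700), was at 4446 CPM (4392 to 4499) in injury members and 26.2 CPM (18.8 to 35.7) in recovery members, a log2 ratio of 6.94 (6.59 to 7.29). Outside the members it was low at both stages, at 6.88 CPM at injury and 0 in recovery in endothelial-gated cells, and at 4.46 and 0.544 CPM in duct-gated cells. Serpina3n, a secreted inhibitor of serine proteases (ENSMUSG00000021091, chromosome 12, 104406729 to 104414329), was at 892 CPM at injury and 14.4 CPM in recovery (5.21). It was also higher in endothelial-gated cells, at 164 CPM at injury and 18.9 CPM in recovery (2.59). Lcn2, a lipocalin that binds bacterial siderophores, was at 776 and 12.5 CPM in injury and recovery members (5.13), and higher still in injured duct-gated cells, at 3855 CPM against 281 CPM in recovery (3.73).

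Of the 14 acute-phase genes 7 were kept in the members, and 5 of these were higher and 0 lower, with a list median of 0.66. In duct-gated cells 5 of 6 kept were higher and 0 lower (median 0.49), and in endothelial-gated cells 3 of 6 and 0 (median 0.35). The other genes called in the members were the copper-carrying ferroxidase Cp, at 460 CPM at injury and 45.9 CPM in recovery (3.07), and haptoglobin, Hp, at 21.8 and 1.97 CPM (1.41). Cp was not higher in endothelial-gated cells (80.4 CPM at injury, 87.7 CPM in recovery) or in duct-gated cells (2378 and 4517 CPM). The lipopolysaccharide-binding protein Lbp, at 478 CPM at injury and 270 CPM in recovery (0.80), and the metalloreductase Steap4, at 197 and 93.8 CPM (1.0), did not pass 2-fold, though Steap4 did on TMM scaling (1.17). The related Saa1 was at 4.33 CPM at injury and 0 in recovery, and Saa2 at 0.333 CPM and 0. Reads of serum amyloid A and Serpina3 family members are hard to tell apart, so their assignment within each family is uncertain.

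**Figure D2:**
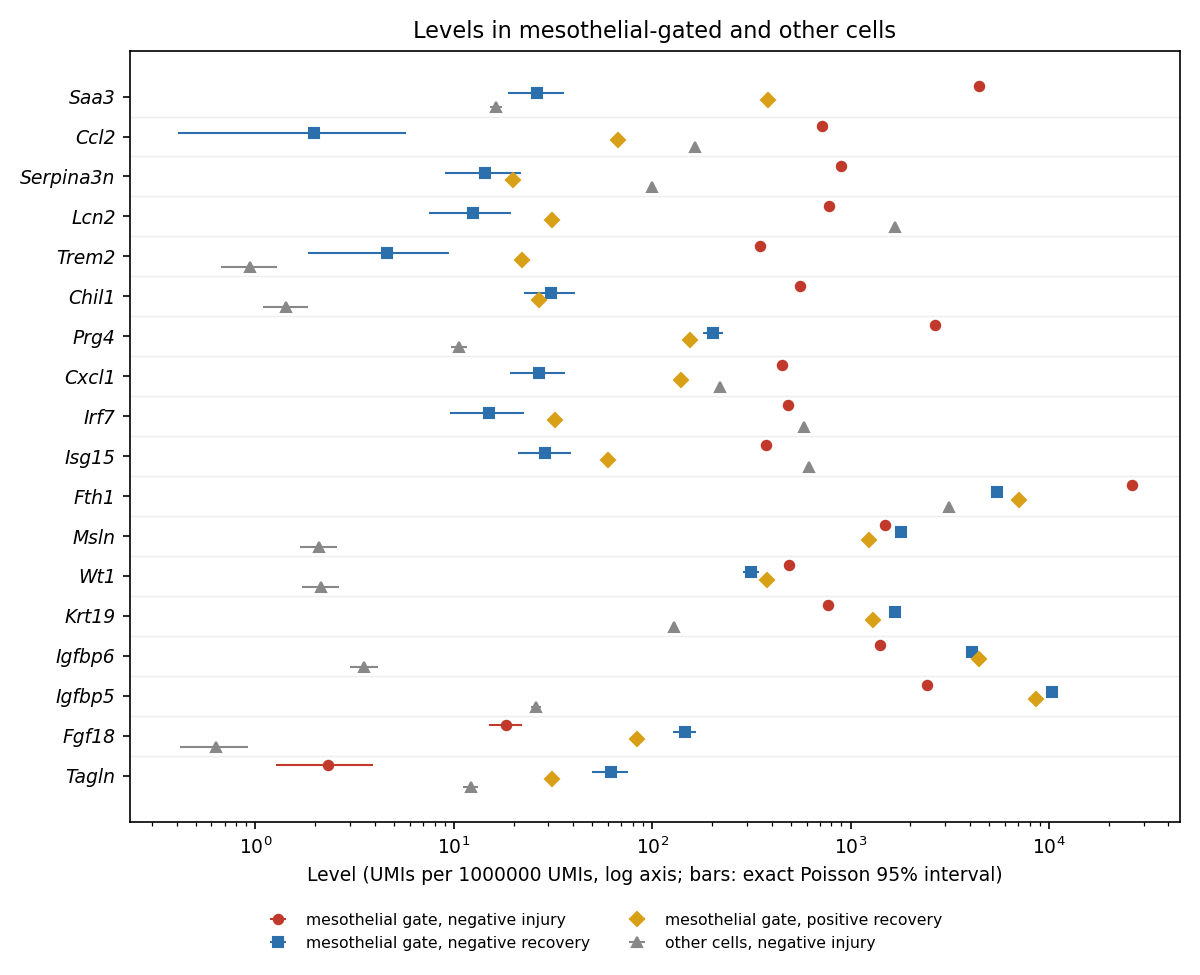
Levels on a log axis (CPM) of named genes in mesothelial-gated cells at negative injury (red circles), negative recovery (blue squares) and positive recovery (yellow diamonds), and in the other cells of the negative injury library (grey triangles), with bars for exact Poisson 95% intervals. Saa3, Prg4 and Trem2 are highest in injury members and far lower in the other injury cells, while Irf7 and Lcn2 are as high or higher in the other injury cells.

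Chemokines followed. Ccl2, the main attractant of monocytes (ENSMUSG00000035385, chromosome 11, 82035571 to 82037453), was at 715 CPM (694 to 737) in injury members. In recovery members only 3 counts were found, or 1.97 CPM (0.406 to 5.75), which gave a ratio of 5.92 (5.48 to 6.17). Endothelial-gated cells had 117 CPM at injury and 8.25 CPM in recovery (2.80), and duct-gated cells 211 and 13.0 CPM (3.26), so Ccl2 was higher at injury in all 3 gates. Of 15 chemokines 8 were kept in the members, with 6 higher and 0 lower and a median of 0.68. In duct-gated cells 5 of 8 kept were higher and 0 lower (median 0.68), and in endothelial-gated cells 5 of 6 and 0 (median 0.16). Those higher in the members included Ccl7, which also draws monocytes, at 102 CPM at injury and 2.62 CPM in recovery (3.15), and Cxcl1, which draws neutrophils, at 450 and 26.9 CPM (3.64). Cxcl2, a close relative of Cxcl1, was at 45.1 CPM at injury and 0 in recovery, at least 22.9-fold higher when recovery is set to a floor of 3 counts over the gate. The interferon-induced Cxcl10 was at 286 and 80.7 CPM at injury and in recovery (1.70), below the endothelial-gated level of 2836 CPM at injury and 330 CPM in recovery. The B cell attractant Cxcl13 was at 21.6 and 2.62 CPM (1.33), but at the level of the positive recovery members when these were taken as the recovery group (-0.02). Among 9 cytokines, 3 of them kept, only Csf3, the granulocyte colony-stimulating factor, was called, at 20.3 CPM at injury and 0 in recovery (1.6). Il6 was at 2.83 and 0.656 CPM.

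Of 16 inflammatory signalling genes, many of them of the NF-kB pathway, 9 passed 2-fold upward and 0 downward, with a median of 1.10. In endothelial-gated cells 6 were higher with a median of 0.66, and in duct-gated cells 2 with a median of 0.77. With the positive recovery members as the recovery group 6 of the 16 were higher. Tnfaip3, the ubiquitin-editing brake on NF-kB also called A20, was at 298 CPM in injury members and 14.4 CPM in recovery members (3.65). With every cell drawn down to 2000 UMIs, it was found in 38.7% of injury and 1.22% of recovery members. The shares of endothelial-gated cells were 44.6% at injury and 7.56% in recovery. The NF-kB inhibitor Nfkbia was at 2385 and 579 CPM at injury and in recovery (2.02), the leukocyte adhesion receptor Vcam1 at 290 and 51.8 CPM (2.28), the C/EBP family member Cebpd at 934 and 215 CPM (2.07), and mitochondrial superoxide dismutase, Sod2, at 418 and 115 CPM (1.78). Immediate early genes, which are also induced by tissue digestion, were higher for 5 of 14 members and lower for 0, but for 1 of 14 against the positive recovery members. They were led by Ier3 at 1618 CPM at injury and 239 CPM in recovery (2.71). Their median was 0.54 in the members, 0.63 in endothelial-gated cells, where 4 were higher, and -0.03 in duct-gated cells, where 1 was higher.

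Interferon-stimulated genes were higher at injury in members, endothelial-gated and duct-gated cells. Of 18 genes 16 were kept in the members, and 14 were higher and 0 lower, with a median of 1.56. In endothelial-gated cells 15 were higher with a median of 2.20, and in duct-gated cells 16 were higher with a median of 2.28. Irf7, a transcription factor that drives type I interferon production, was at 486 CPM in injury members and 15.1 CPM in recovery members (4.31), at 576 and 20.2 CPM in endothelial-gated cells (4.28), and at 616 and 26.3 CPM in duct-gated cells (4.11). The ubiquitin-like Isg15 was at 373 and 28.9 CPM in injury and recovery members (3.30), the RNA-binding Ifit1 at 372 and 35.4 CPM (3.07), and Ifi27l2a at 1952 and 488 CPM (1.98). Antigen presentation genes did not move with them in the members: of 10 class I and peptide-loading genes, 9 of them kept, 0 were higher (median 0.23). In endothelial-gated cells 1 of the 10 was higher and 0 lower (median 0.57), and in duct-gated cells 4 were higher and 1 lower (median 0.78). H2-Q7 was lower in the members, at 68.3 CPM at injury and 261 CPM in recovery (-1.79). Among class II genes, H2-Eb1 (ENSMUSG00000060586, chromosome 17, 34305867 to 34316674) was at 1.67 CPM in injury members and 116 CPM in recovery members (-3.43). Its partners were near level, with H2-Aa at 84.9 and 106 CPM, H2-Ab1 at 150 and 144 CPM, and the invariant chain Cd74 at 865 and 877 CPM at injury and in recovery. In duct-gated cells H2-Eb1 was likewise lower, at 1.49 CPM at injury and 30.1 CPM in recovery (-1.80).

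**Figure D3:**
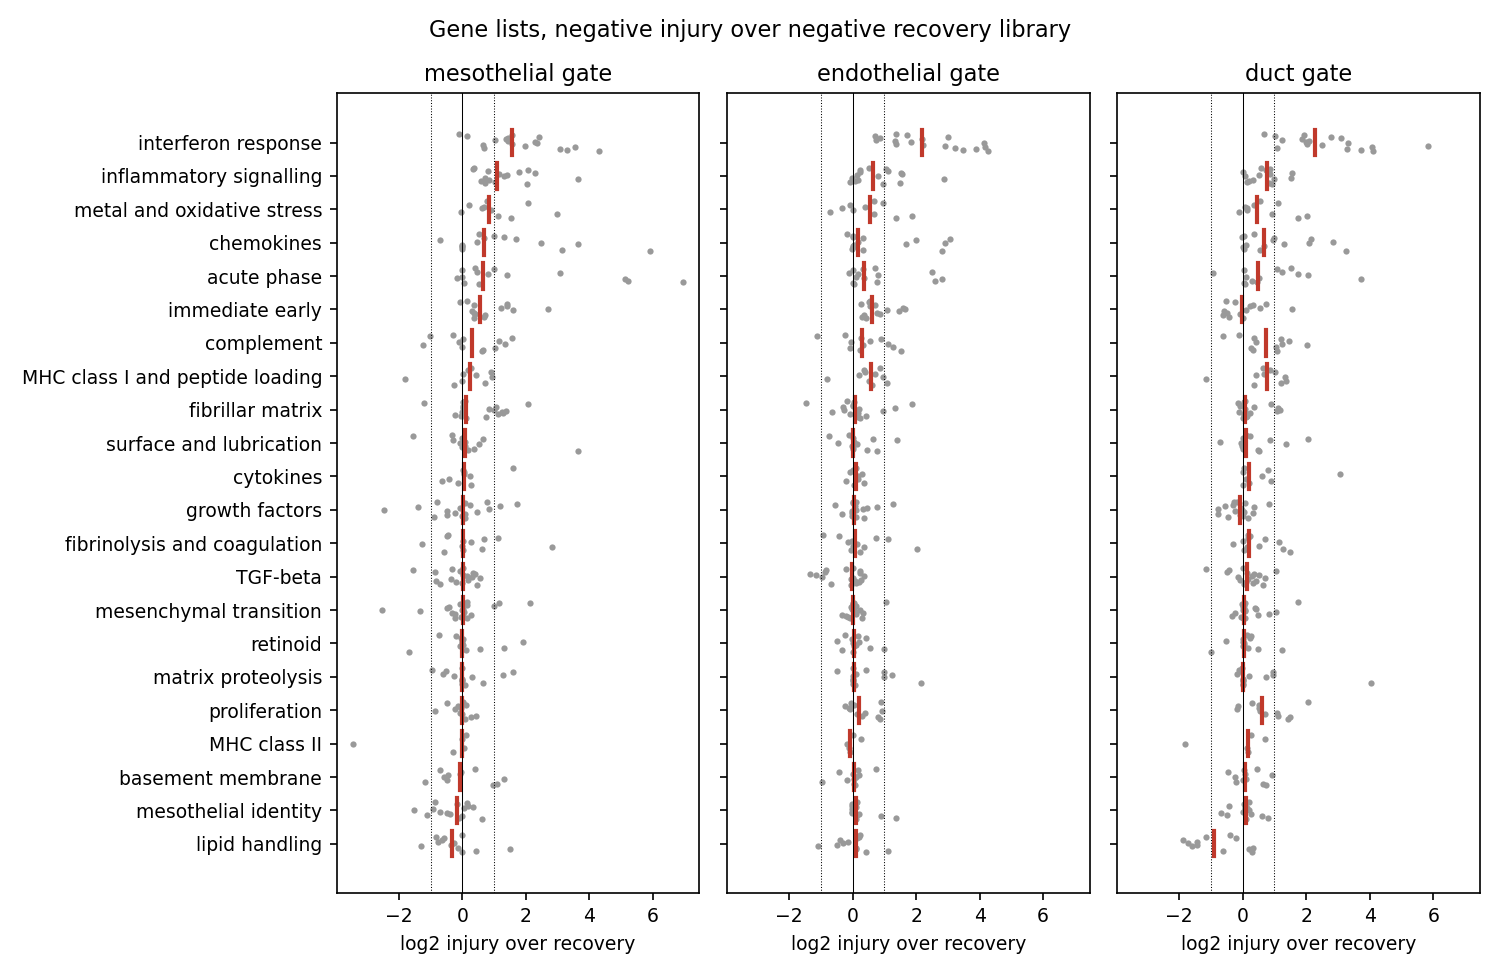
Log2 ratio of injury over recovery with 10 CPM added, for every gene of each list, in mesothelial-gated, endothelial-gated and duct-gated cells. Each point is 1 gene, kept or not, each red bar the list median, and dotted lines mark 2-fold. The interferon list has medians of 1.56 in mesothelial-gated, 2.20 in endothelial-gated and 2.28 in duct-gated cells.

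The surface and lubrication list held 1 higher and 1 lower gene of 13, 8 of them kept, with a median of 0.09. Prg4, the joint and peritoneal lubricant lubricin (ENSMUSG00000006014, chromosome 1, 150449412 to 150466165), was at 2667 CPM in injury members and 203 CPM in recovery members (3.65), against 10.7 CPM in the other injury cells. The antiprotease Slpi was at 9959 and 6337 CPM at injury and in recovery (0.65), within 2-fold. The lower gene was the water channel Aqp1, at 410 and 1226 CPM (-1.56). Fth1, the iron-storing ferritin heavy chain (ENSMUSG00000024661, chromosome 19, 9980598 to 9985098), was at 26132 CPM in injury members and 5490 CPM in recovery members (2.25), while endothelial-gated cells had 979 CPM at injury and 910 CPM in recovery (0.11). At injury its level was 21.0% of the member level in duct-gated cells and 3.75% in endothelial-gated cells. Of 10 metal and oxidative stress genes 8 were kept, with 4 higher and 0 lower. The higher ones were the haem-degrading Hmox1, at 147 CPM at injury and 9.84 CPM in recovery (2.99), the extracellular peroxidase Gpx3, at 240 and 49.9 CPM (2.06), and the metallothioneins Mt1, at 2378 and 812 CPM (1.54), and Mt2 (1.12). Mt1 was higher in endothelial-gated cells too (1.36).

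Further genes among the 15 highest were receptors and secreted proteins. Trem2, a lipid-sensing receptor best known from macrophages (ENSMUSG00000023992, chromosome 17, 48346401 to 48354147), was at 350 CPM in injury members and 4.59 CPM in recovery members (4.62). The other injury cells had 0.939 CPM of it, and macrophage genes in the same members were near 0, with Csf1r at 2.0 CPM and Lyz2 at 0.500 CPM. The chitinase-like Chil1 was at 558 CPM at injury and 30.8 CPM in recovery (3.80), and at 1.43 CPM in the other injury cells. Ly6a, the surface protein Sca-1, was at 322 and 3.94 CPM in injury and recovery members (4.58), but at 134 CPM in the positive recovery members (1.21), and higher in endothelial-gated cells, at 1666 and 745 CPM (1.15). The lipoprotein lipase inhibitor Angptl4 was at 108 and 2.62 CPM in injury and recovery members (3.23). The rest of the 15 were Ifit3 (3.55) and Serpina3g (3.37). Both were found in more endothelial-gated cells than members at injury when every cell was drawn down to 2000 UMIs. Ifit3 was in 57.1% of endothelial-gated cells and 39.7% of members, and Serpina3g in 52.3% and 20.2%.

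Matrix genes were mixed. Of 19 fibrillar matrix genes 15 were kept, with 6 higher and 1 lower (median 0.13). Against the positive recovery members 4 were higher and 6 lower (median -0.35). The higher ones were thrombospondin Thbs1, at 180 CPM at injury and 34.8 CPM in recovery (2.08), fibronectin Fn1, at 22.5 and 2.62 CPM (1.36), the beaded-filament collagen Col6a1, at 718 and 290 CPM (1.28), Col6a2 (1.25), Col5a2 (1.13) and the small proteoglycan Bgn, at 1640 and 785 CPM (1.05). The lower one was elastin, Eln, at 183 and 438 CPM (-1.22). Col1a1 was at 39.0 CPM at injury and 34.8 CPM in recovery (0.13), Col3a1 at 326 and 335 CPM, Dcn at 8886 and 8710 CPM (0.03), and Col1a2, whose promoter drives the Cre, at 103 and 57.1 CPM (0.75). Against the positive recovery members the Fn1 ratio was -2.39 and that of Col1a2 -1.46. Among basement membrane genes 2 of 11 were higher (Lamb1 1.31, Col4a2 1.09) and 1 lower (Lama4 -1.18). Of 14 proteolysis genes 7 were kept. The metalloproteinase inhibitor Timp1, at 437 and 139 CPM at injury and in recovery (1.59), and Adamts1 (1.29) were higher. Among fibrinolysis and coagulation genes, the protein C receptor Procr was higher (1.13), while tissue factor, F3, was lower, at 59.8 CPM at injury and 159 CPM in recovery (-1.28).

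Genes of mesenchymal transition went both ways, with 9 of 20 kept, 2 higher and 2 lower (median 0.01). Against the positive recovery members 0 were higher and 6 lower (median -0.83). S100a4, a calcium-binding protein of fibroblasts and other motile cells, was at 73.9 CPM at injury and 9.19 CPM in recovery (2.13), and the zinc finger factor Osr1 at 17.8 and 2.62 CPM (1.14), though far below the positive recovery members (-2.22). The contractile genes Tagln, at 2.33 CPM at injury and 61.7 CPM in recovery (-2.54), and Acta2, at 21.1 and 68.9 CPM (-1.34), were lower, and the filament Vim was at 2876 and 3368 CPM. In recovery 15.5% of members carried a Tagln UMI, and at 10000 UMIs per cell 1 recovery cell held 39 while at least 9 in 10 cells held 1 or fewer. The Tagln ratio was -1.11 among members low in the hepatocyte marker sum and -1.74 against the positive recovery members. Of 18 TGF-beta genes 14 were kept and 0 were higher. The bone morphogenetic protein Bmp4 was lower, at 68.8 CPM at injury and 222 CPM in recovery (-1.56). Proliferation genes had 0 called of 12, of which only 4 were kept and could be called. Mki67 was at 0.500 CPM at injury and 0 in recovery.

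Complement genes were higher for 4 and lower for 2 of 12. The higher ones were the decay-accelerating factor Cd55, at 444 CPM at injury and 145 CPM in recovery (1.55), the alternative pathway protease Cfb, at 1594 and 621 CPM (1.35), Cfi (1.15) and C1ra (1.03). C4b, at 974 and 2322 CPM (-1.24), and the complement lysis inhibitor Cd59a (-1.01) were lower. Against the positive recovery members 4 complement genes were higher and 0 lower, with C4b at -0.81 and Cd59a at -0.99. C3, the central component, was within 2-fold at 14643 and 9608 CPM (0.61). Of 13 retinoid genes 6 were kept. The retinol dehydrogenase Rdh10, at 162 and 35.4 CPM (1.92), and Aldh1a1, at 500.2 and 196 CPM (1.31), were higher. The chemerin gene Rarres2, at 1452 CPM at injury and 4717 CPM in recovery (-1.69), was lower. Growth factors split as well among 18, 10 of them kept, with the epidermal growth factor family member Hbegf (1.71) and Pdgfc (1.19) higher and Fgf18 and Pdgfa (-1.39) lower. Against the positive recovery members 1 growth factor was higher and 5 lower (median -0.35). Of 12 lipid genes, 8 of them kept, 1 was higher, the fatty acid carrier Fabp4 (1.51), and 1 lower (median -0.32). Against the positive recovery members 0 lipid genes were higher and 3 lower.

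Among the 15 lowest genes, some were lower in other gates too. The long non-coding RNA Gm12840 (ENSMUSG00000086320, chromosome 4, 117700188 to 117700923) was at 5.50 CPM in injury members and 2552 CPM in recovery members (-7.37). It was at 1.32 and 613 CPM in endothelial-gated cells (-5.78), 0.476 and 3.81 CPM in duct-gated cells, and 2222 CPM in the positive recovery members. The ribonuclease gene Rnaset2b was at 1.33 and 41.3 CPM in injury and recovery members (-2.18), and lower in endothelial-gated (-2.48) and duct-gated cells (-2.92) as well, and its near-identical copy makes its counts uncertain. The latent TGF-beta binding protein Ltbp4, at 264 CPM at injury and 1046 CPM in recovery (-1.95), was also lower in endothelial-gated cells, at 139 and 771 CPM (-2.39).

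The other low genes included several that encode secreted proteins. Igfbp5 (ENSMUSG00000026185, chromosome 1, 72857932 to 72874884), a binder of insulin-like growth factors, was at 2436 CPM in injury members and 10332 CPM in recovery members (-2.08), against 26.0 CPM in the other injury cells. Fgf18, a fibroblast growth factor, was at 18.3 and 146 CPM at injury and in recovery (-2.46), and the secreted Angptl7 at 10.7 and 77.4 CPM. Fgl2, a fibrinogen-like protein, was at 65.6 and 274 CPM (-1.91). The carboxylesterase Ces1d was at 4.5 and 108 CPM (-3.03), and was higher in level but also lower at injury in duct-gated cells, at 487 and 1076 CPM (-1.13). Kdr, a receptor for vascular endothelial growth factor that also marks endothelium, was at 65.8 and 292 CPM (-1.99, and -0.99 against the positive recovery members). Kdr is itself among the sinusoidal markers, so these levels are part of their sums of 150 and 398 CPM given above. The rest were the contractile gene Tagln and H2-Eb1, both described above, the non-coding Gm26809 and Gm26802, and Lrrc31 and Rab6b. Some of these were lower in endothelial-gated cells too. With every cell drawn down to 2000 UMIs, Rab6b was found in 0.263% of injured and 4.79% of recovering endothelial-gated cells. Gm26809 was found in 0.176% and 1.34% of them, and Gm26802 in 9.07% and 22.8%.

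Against the other 4970 injury cells the members had 673 of 9047 genes at least 2-fold higher (7.44%) and 1386 lower (15.3%), which describes the gate, as it picks cells by their genes. The highest were Slpi, at 9959 CPM in members and 37.7 CPM in other cells (7.71), Saa3 (7.40), Prg4 (7.02), Igfbp6 (6.72), the atrial myosin light chain Myl7, at 851 and 1.36 CPM (6.24), Igfbp5 (6.09), the prostacyclin synthase Ptgis, at 806 and 2.63 CPM (6.01), Gas1 (5.88), carboxypeptidase E, Cpe, at 1290 and 12.2 CPM (5.87), and the complement protease C1s1, at 1072 and 10.3 CPM (5.74). Levels in endothelial-gated cells of the same library were 0.111% of the member level for Msln, 0.155% for Saa3, 0.276% for Trem2 and 0.293% for Prg4. The endothelial gate itself limits the gate genes, so the Msln level there was low by choice. Saa3 and Prg4 were picked above as highest over the other injury cells. For Ccl2 and Serpina3n they were 16.4% and 18.4%, and for Irf7 118%. Leaving out Msln, the endothelial-gated level of the genes given here thus ran from 0.155% to 118% of the member level.

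Shares of cells were compared after thinning every cell to 2000 UMIs, which left out 19 injury and 2 recovery members. A Saa3 UMI was then found in 63.5% (57.6 to 69.1) of 282 injury members and 2.44% of 82 recovery members, against 1.29% of injured endothelial-gated cells, whose median depth was 6162 UMIs. Unthinned, the shares were 81.4% of injury members and 13.1% of recovery members. Serpina3n was found in 74.8% and 2.44% of thinned injury and recovery members, Lcn2 in 70.6% and 2.44%, Prg4 in 92.6% and 28%, and Ccl2 in 53.9% and 1.22%. Trem2 was found in 37.9% of injury members and in 0 of 82 recovery members, which at 2000 UMIs allows a share with a UMI of up to 4.40%. Unthinned, Trem2 was found in 74.8% of injury members and 7.14% of recovery members. The Wt1 shares had overlapping intervals, at 57.8% (51.8 to 63.6) of injury and 48.8% (37.6 to 60.1) of recovery members, though its CPM given above was higher at injury. Gm12840 was found in 2.13% of injury members and 90.2% of recovery members, against 0.234% and 47.7% of endothelial-gated cells, and H2-Eb1 in 0 of 282 injury members, which at this depth allows up to 1.30%, and 25.6% of recovery members. The unthinned H2-Eb1 shares were 2.99% of injury members and 61.9% of recovery members.

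**Figure D4:**
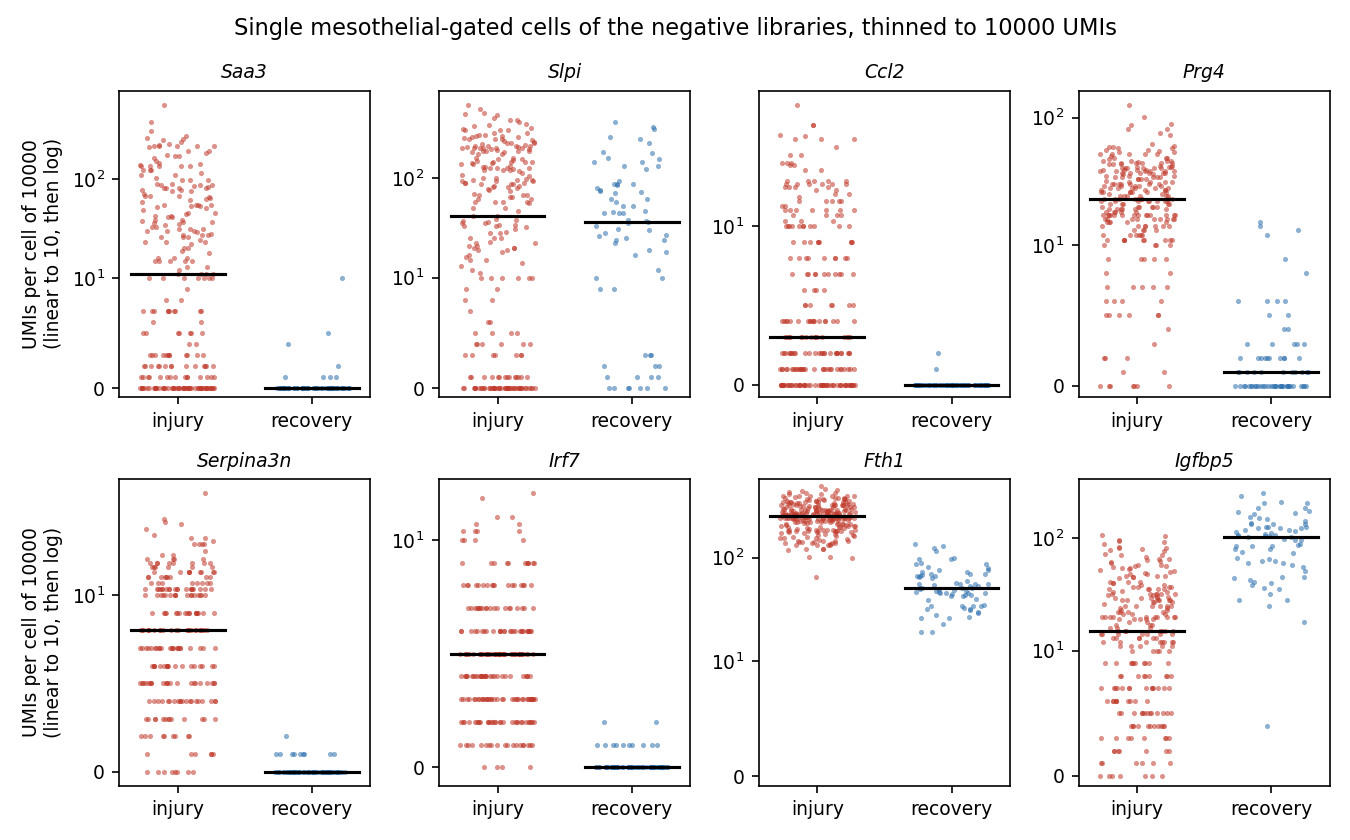
UMIs of 8 genes in single mesothelial-gated cells thinned to 10000 UMIs each, for 258 injury cells (red) and 74 recovery cells (blue), on an axis that is linear to 10 and logarithmic above. Each point is 1 cell and each black line a median. Fth1 has medians of 254 at injury and 51 in recovery, while Saa3 at injury runs between 0 and 562.

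The members differed widely among themselves in a few secreted proteins. At 10000 UMIs per cell, a depth chosen after the data were seen that left 258 injury cells and 74 recovery cells, Saa3 had a median of 11 UMIs and a highest value of 562. It was at 0 in 56 injury cells and at 100 or more in 39, and the 25 highest cells held 48.6% of its UMIs, while 66 of 74 recovery cells were at 0. Slpi had a median of 42 UMIs, with 47 injury cells at 0 and 89 at 100 or more. Fth1 was even by comparison, with a median of 254 (65 to 487) at injury and 51 (19 to 136) in recovery, and 257 of 258 injury cells but 4 of 74 recovery cells had at least 100. Prg4 was at 0 in 7 injury cells, with a median of 23, and Igfbp5 had medians of 15 at injury and 101.5 in recovery.

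The Fano factor, the variance over the mean, was 134 for Slpi and 121 for Saa3 among injury members, against a median of 1.07 over 5910 genes. Gm42418 (60.3), the secreted phosphoprotein Spp1 (39.8), the small heat-shock protein Cryab (27.6), the calcium-binding S100a6 (26.4), Malat1 (23.5), Fth1 (23.1) and Igfbp5 (21.7) followed. Ccl2 had 14.6, Prg4 12.8, C3 11.8, Msln 6.85, Lcn2 4.03, Serpina3n 3.88 and Irf7 1.63. The factor tends to rise with a gene's mean, here 4.86 UMIs for Irf7 and 147 for C3. It therefore does not rank how even these genes were among cells. Spp1 is a duct marker, and its highest injury member had 104 UMIs where the median was 0. Cryab likewise had 1 injury member with 185 UMIs where the median was 4 and at least 9 in 10 cells held 8 or fewer, and its Fano factor was 1.26 in recovery.

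**Figure D5:**
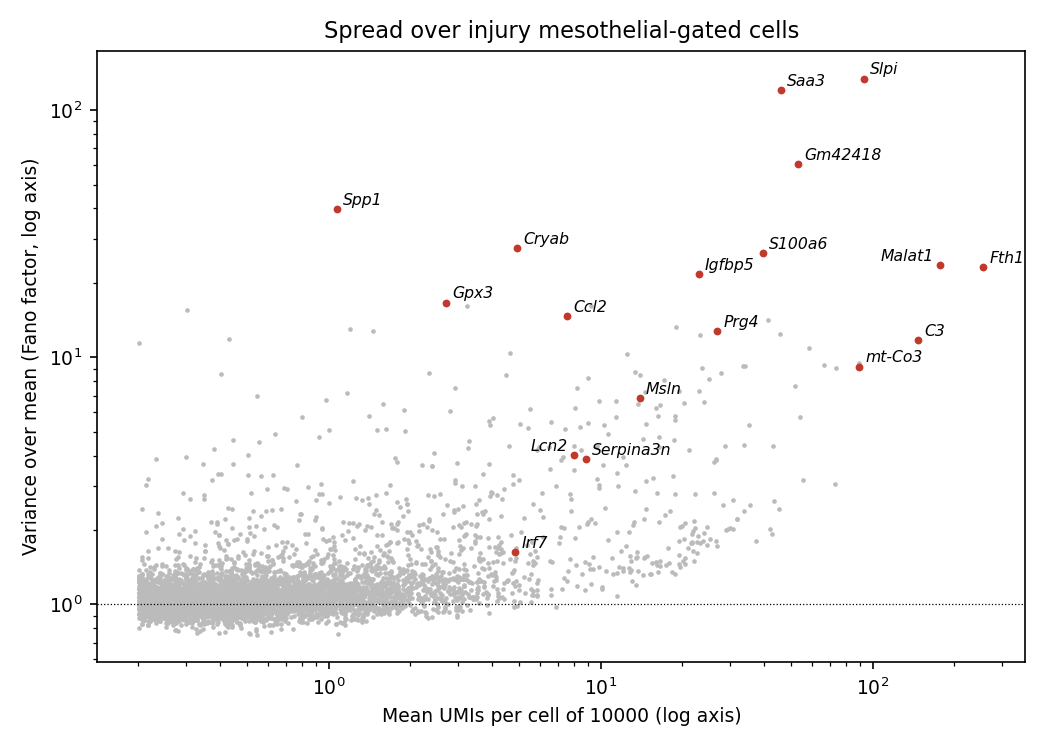
Fano factor among 258 injury members thinned to 10000 UMIs (vertical axis) against the mean UMIs per cell (horizontal axis), both on log axes, 1 point per gene with named genes in red and a dotted line at 1. Slpi at 134 and Saa3 at 121 lie highest, and the median gene is at 1.07.

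Some genes varied together across the injury members. Over the same 258 cells, which share 1 library, Pearson's r was 0.71 between Igfbp6 and S100a6, 0.65 between Krt7 and S100a6, 0.64 between S100a6 and Msln, and 0.51 between Krt7 and Krt19. Saa3 ran the other way, with r of -0.38 with Igfbp6, -0.35 with Msln and -0.27 with Krt19. It was weakly related to Ccl2 (0.18) and Serpina3n (-0.08). A cell's original total of UMIs had r of 0.39 with S100a6, 0.32 with Msln and -0.07 with Saa3, so depth moved with part of the first group. Msln is a gate gene, which bounds its range from below.

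The 1389 positive recovery members give a second recovery level from the other fraction, with a median of 14955 UMIs per cell. Against them injury members had 169 of 8390 genes higher (2.01%) and 209 lower (2.49%), and both comparisons share the injury cells. Saa3 was at 4446 CPM in injury members, 385 CPM in positive recovery members and 26.2 CPM in negative recovery members. Ccl2 was at 715, 67.0 and 1.97 CPM in the same order, Trem2 at 350, 22.2 and 4.59 CPM, and Serpina3n at 892, 19.8 and 14.4 CPM. Prg4 was at 2667, 155 and 203 CPM, and Fth1 at 26132, 7059 and 5490 CPM. Each of these genes was lower in both groups of recovery members than at injury.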

How the data were processed

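Single-cell 3' libraries of liver non-parenchymal cells were used as deposited: the matrices hold 1 count of UMIs per gene and barcode and were written with matrix software 3.1.0, per the file headers. The builds mm10 and GRCh38 and featureCounts 1.6.2 are named in the submitters' processing notes. How reads were aligned and cells called was not stated in the headers or labels used here. The negative injury matrix held 6160 barcodes and 49993127 UMIs, the negative recovery matrix 3108 and 27816768, and the positive recovery matrix 2606 and 33442403. In the injury library 526 barcodes had under 1000 UMIs, 285 under 300 genes and 711 over 20% mitochondrial UMIs. The fractions are those of the labels, and 30934 gene IDs were found in GENCODE M21 (GRCm38, mm10), which gave the coordinates.

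Counts were summed over the gated cells of a library and divided by their summed total (CPM). The endothelial gate required an endothelial sum of at least 20 and a mesothelial sum under 10 per 10000. The duct gate also required a mesothelial sum under 10 and an endothelial sum under 20 per 10000. Log2 ratios were taken with 10 CPM added, for genes with a mean of at least 10 CPM over both groups. Intervals are exact Poisson and Clopper-Pearson at 95%, and floors are 3 counts. Thinning drew UMIs without replacement with the seed 7. The calls were also run on simulated counts, with large changes set in genes well above the filter and counting error only. Those counts held no variation between animals or libraries, so they cannot show how often the calls made here are wrong. No doublet caller was run. Doublets were addressed by the endothelial limit of the gate, the marker sums and a run without the 10% of members with the most UMIs. Tools were Python 3.11.15, numpy 2.4.6, scipy 1.17.1, pandas 2.3.3, matplotlib 3.10.9 and, for TMM factors only, edgeR 4.0.16 in R 4.3.3.

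The 31 gene lists (379 symbols, all among the features), the members and the comparisons were chosen with earlier results of these data known. Named genes are the 6 that mark the cells, the 15 highest and 15 lowest ratios with at least 20 UMIs in the higher group, the 10 highest over other injury cells, the 10 largest Fano factors and list members as examples; Fth1 was chosen among the last 10. Csf1r and Lyz2 are list members named after their values were seen. Alternatives changed the added CPM, the scaling, the filter, the weighting of cells, the gate and cell limits, the hepatocyte marker limit and the recovery library. Fewer cells and less RNA per cell cannot be told apart in the share of a library. A few members of the gene lists are not reported here.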

Additional observations from a re-analysis of the deposited data

Results flagged for a closer look

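C4b, a complement component, lay past 2-fold in opposite directions in different cells of the same libraries. It was at 974 CPM in injury members and 2322 CPM in recovery members (log2 ratio -1.24), but at 117 CPM in injured and 21.4 CPM in recovering duct-gated cells (2.01). Against the positive recovery members the ratio in injury members was -0.81, within 2-fold. The difference between the gates was not tested, and its near-identical copy makes the read assignment uncertain.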

How the results depend on the processing

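No paired analysis was possible because each group is 1 library and no test was run. The 217 genes higher at injury became 101 with 50 CPM added, and the 205 lower became 450 with 1 CPM and 56 with 50 CPM. With 50 CPM added, 5 inflammatory signalling genes (of 9) and 9 interferon genes (of 14) stayed past 2-fold. The gate took 4.57% of injury cells with a sum of at least 20 and 6.92% among cells of at least 5000 UMIs. Members had 1058 genes higher than endothelial-gated cells and 348 higher than all other cells with 50 CPM added, against 673. With the positive recovery members as the recovery group, the ratios of Cxcl13 (-0.016), Fn1 (-2.39), Lamb1 (-0.028) and Osr1 (-2.22) turned negative. The cause of these shifts was not tested. The other 100 of 104 named and called genes kept their direction there, and 78 passed 2-fold. All 104 kept it under the other alternatives. With the added CPM left at 10, the log2 ratio of Saa3 ranged between 3.50 and 7.66, Ccl2 between 3.24 and 6.13, Serpina3n between 4.92 and 5.40, Prg4 between 3.59 and 4.02, Fth1 between 1.89 and 2.43, Igfbp5 between -2.22 and -1.82, Ly6a between 1.21 and 4.94, Tnfaip3 between 2.31 and 3.79, Kdr between -2.06 and -0.99 and Tagln between -2.89 and -1.11. The hepatocyte marker sum was mostly Trf in the members, so a limit on it mainly picks members low in Trf. Among members low in this sum (140 injury, 52 recovery) 93 of the 104 passed 2-fold. On TMM scaling 102 did, and Krt19 and Cd59a did not. The 84 recovery members limit low genes.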
